A study of Mus musculus with 2 samples.

Results

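Among periosteal cells traced with αSMACreER, 54 of 503 wells held transcripts of the muscle satellite cell genes Pax7, Cdh15, Myf5, Myod1 or Calcr and stayed within limits on pericyte and tendon genes. Members were wells with 1 or more UMIs (unique molecular identifiers, each standing for 1 captured transcript) summed over those 5 genes, no UMI of Rgs5 and at most 2 UMIs summed over Thbs4, Fmod and Tnmd. Rgs5 marks pericytes, and Thbs4, Fmod and Tnmd mark tendon and fibrous tissue. The 503 wells were those with a labeled time point and at least 200 genes detected, out of 600 with a time point. The 2-day pool gave 25 members among 181 kept wells, the 6-week pool 17 of 189, and the 13-week pool 12 of 133. The main comparison was with the 157 wells that met the same limits and had no UMI of the 5 genes (54, 63 and 40 wells by time point), called the other wells.

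The cells came from the periosteum of mouse tibia and femur, sorted for Tomato fluorescence without antibody staining after a 30-min digest and exclusion of dead cells. In every group, tamoxifen (75 mg/kg, 2 doses 24 h apart) activated a Cre recombinase driven by the αSMA promoter, which turned on the Ai9 Tomato reporter for good in the cell and its descendants. The 2-day and 6-week pools were αSMACreER/Ai9/Col2.3GFP mice, traced for 2 days to an age of 10.3 weeks and for 43 days to an age of 14.4 weeks. The 13-week pool was αSMACreER/Ai9/R26-M2rtTA/TetOP-H2B-GFP mice, given doxycycline for 5 weeks and then taken off it, traced for 96 days to an age of 20.1 weeks. Each pool joined 2 to 3 female mice, with 1 pool per time point. At 13 weeks the strain, the doxycycline, the ages at tamoxifen and at isolation and the tracing time cannot be told apart. The 2-day and 13-week wells shared 1 plate and the 6-week wells filled another, so the 6-week values and their plate cannot be told apart either.

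Satellite cells are the stem cells of skeletal muscle and lie between the muscle fibre and its basal lamina. Pax7 is the transcription factor that defines them, Cdh15 (M-cadherin) joins them to the fibre, and Calcr (the calcitonin receptor) helps to hold them at rest. Myf5 and Myod1 are transcription factors that commit cells to the muscle lineage, Myog and Myh3 follow as cells differentiate and build fibres, and Notch signals maintain the resting state. Muscle lies against the periosteum of the long bones.

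The rule rested on few transcripts per cell, and the counts of its 5 genes describe the choice of members. The members held 101 UMIs of the 5 genes. Exactly 1 UMI admitted 28 of the 54 wells, 14 wells had 2 UMIs, 8 had 3, 2 had 4, 1 had 5 and 1 had 8. Pax7 gave 45 UMIs in 28 members, Cdh15 25 UMIs in 23 members, Myf5 13 in 12, Myod1 12 in 10 and Calcr 6 in 6. All 5 genes were seen in every pool. The annotation has another gene model over Cdh15 on the same strand, Gm20388, so that reads of the overlap are uncertain. A single gene of the 5 was present in 35 members and 2 or more genes in 19. Pax7 met Cdh15 in 8 members and Myf5 in 8, Cdh15 met Myf5 in 5, and 11 members had neither Pax7 nor Cdh15. Among the wells admitted by 1 UMI, that UMI was from Cdh15 in 12, Pax7 in 7, Myod1 in 4, Calcr in 3 and Myf5 in 2. The well with the highest count was a 6-week cell with 4 Pax7, 2 Cdh15, 1 Myf5 and 1 Myod1 among its 1226 UMIs.

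**Figure D1:**
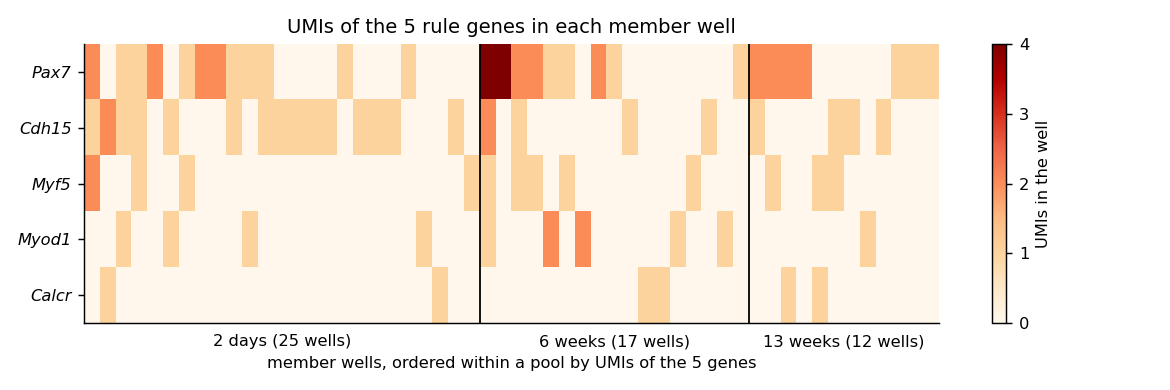
UMIs of each of the 5 rule genes (rows) in each of the 54 member wells (columns, grouped by time point and ordered by their summed UMIs), with color from 0 to 4 UMIs. Pax7 and Cdh15 fill the most wells, 28 and 23, and the darkest fields are those of 6-week wells with 4 Pax7 UMIs.

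Wells just outside the limits were few. Of the members, 26 had 1 or 2 UMIs of the 3 tendon genes, 7 of them exactly 2. Another 11 kept wells had a UMI of the 5 genes and were left out, 8 for Rgs5 (4 of them with a single Rgs5 UMI) and 3 for 4 to 20 UMIs of the tendon genes. None of the 11 had 2 or more UMIs of the 5 genes. Free RNA can put a stray UMI into any well, so the same genes were counted in cells that should lack them. Wells with Rgs5 or over the tendon limit held 11 UMIs of the 5 genes in 253798, or 0.433 per 10000 (95% Poisson interval 0.216 to 0.776). All wells within the limits, members and other wells together, held 101 in 191998, or 5.26 per 10000 (4.29 to 6.39). With each well thinned to 300 UMIs, 14.4% of all wells within the limits held 1 of the 5 genes (Clopper-Pearson interval 9.83 to 19.96), against 3.57% of the Rgs5 wells (0.98 to 8.89) and 0 of 182 tendon wells. Without thinning the background shares were 6.78% and 1.60%, at median depths of 603 and 787 UMIs per well. After thinning, 53.7% of the members themselves still held 1 of the 5 genes. These intervals cover counting error only.

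The members were somewhat deeper than the other wells, with a median of 833 UMIs per well (range 385 to 1869) against 701 (246 to 3870), and the rule favors deeper wells. The 3 pools of members held 22645, 14568 and 8838 UMIs in order of time, which makes 46051 against 145947 in the other wells. Reads per UMI were 6.19 in members and 5.95 in the other wells. The median share of mitochondrial UMIs was 5.45% in members and 4.0% in the other wells.

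Satellite cell genes that took no part in the rule were more abundant in the members than in the other wells at every time point. In members, a list of 26 such genes summed to 50.3 UMIs per 10000 in the 2-day pool, 43.3 in the 6-week pool and 46.4 in the 13-week pool. In the other wells the sums were 10.1, 9.93 and 4.98, lower in every pool. Over all pools the list stood at 47.3 in members, 8.70 in the other wells and 13.0 in all other kept wells. Wells over the tendon limit, which are not among the other wells, held 18.9 (16.9 to 21.1). Of the 218 UMIs of the list in members, Chodl gave 55 and Peg3 gave 44. Of the 26 genes, 20 had a UMI in members. At least 1 of them was seen in 48 of 54 members and 72 of 157 other wells. At equal depth, with each well thinned to 300 UMIs, the shares were 72.2% (39 of 54, interval 58.4 to 83.5) and 25.7% (38 of 148, 18.9 to 33.5).

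Only 4 of the 26 were abundant enough for the test across genes, edgeR's quasi-likelihood test on UMI sums per pool and class with the pool as a block. It gave values for 545 genes outside the rule. Of these, 24 were higher and 44 lower in members at a Benjamini-Hochberg adjusted p under 0.05, so that 12.5% of all tested genes were called, 4.4% as higher and 8.07% as lower. The adjustment ran over 549 genes, since 4 genes of the rule passed the abundance filter, and 2 of those, whose difference the rule fixes, lay under the threshold. With the genes of the rule left out of the adjustment, an alternative chosen after seeing the data, 52 of the 545 genes were called, 16 as higher and 36 as lower (9.54%). Fos is the gene named singly here as called that lost its call in this way. An unadjusted p under 0.05 was reached by 216 genes. The 3 pools, on 2 plates, leave 2 residual degrees of freedom per gene. edgeR draws each gene's estimated spread between pools toward that of the other genes. The p-values therefore rest on both, not on the 3 pools of a gene alone. Without the 2-day pool or without the 13-week pool no gene passed the adjusted threshold, with 88 and 181 genes at an unadjusted p under 0.05. Of the 4 satellite genes tested, 2 were higher and none lower, with a median log2 difference of 2.70 against -0.27 over all tested genes.

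Chodl, which encodes the membrane lectin chondrolectin and lies at chr16:78930948-78951733 (mm10, GENCODE M21), was the first of them. In order of time, its level in members was 14.1, 9.61 and 10.2 UMIs per 10000, and in the other wells 0.709, 1.17 and 1.31. Members were thus above the other wells in 3 of 3 pools, with 55 UMIs in 30 of 54 members against 15 in 11 of 157 wells. The log2 difference was 3.20 ± 0.47 (SE), with an adjusted p of 0.0185 in edgeR's quasi-likelihood test. With every well thinned to 300 UMIs it did not pass (log2 3.26, edgeR adjusted p = 0.0610). Chodl was not particular to the members, however. The wells over the tendon limit held 13.98 per 10000 (12.3 to 15.9), and against all 449 other kept wells the log2 difference was 0.57 (edgeR adjusted p = 0.234). With every well thinned to 300 UMIs, Chodl was seen in 25.9% of members, 24.7% of tendon wells and 2.03% of the other wells.

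Peg3, an imprinted zinc finger gene expressed from the paternal copy and located at chr7:6703892-6730431, was the other. Members held 10.2, 9.61 and 7.92 UMIs per 10000 at 2 days, 6 weeks and 13 weeks. The other wells held 1.77, 1.36 and 0, lower in 3 of 3 pools. The 44 UMIs came from 25 members, and the log2 difference was 2.87 ± 0.59 (edgeR adjusted p = 0.0307), which did not pass with wells thinned to 300 UMIs (log2 2.39, edgeR adjusted p = 0.141). Unlike Chodl, Peg3 was also higher than in all 449 other kept wells, with a log2 difference of 3.46 and an edgeR adjusted p of 1.53e-08. Chodl and Peg3 occurred together in 16 members, Chodl alone in 14, Peg3 alone in 9 and neither in 15.

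The remaining satellite genes were counted but not called. Dag1 (dystroglycan, which ties the cell to the basal lamina) had 13 UMIs in members and 6 in the other wells, a log2 difference of 2.53 with an edgeR adjusted p of 0.0785. Des (desmin, the muscle intermediate filament) had 15 and 21, a difference of 0.88 with an adjusted p of 0.43. Below the abundance filter, and so without a test, Asb5 had 11 UMIs in members against 4 in the other wells, whose UMI sum was larger. The receptor Fgfr4 had 9 against 2, Megf10 (a receptor of satellite cells) 9 against 3, Hs6st2 7 against 1, Chrdl2 7 against 1, Cd82 5 against 0 and Musk, the muscle-specific kinase of the nerve junction, 3 against 0. Sdc4 and Vcam1, surface proteins that satellite cells share with other cell types, had 15 and 7 UMIs in members and 10 and 11 in the other wells. Sdc3, Pax3, Arpp21, Met and Cxcr4 had no UMI among the 46051 of the members.

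The members differed among themselves in the satellite genes outside the rule. Sorted by their rule UMIs, the satellite list outside the rule stood at 8.70 per 10000 in wells with none, 31.5 (24.7 to 39.7) in wells with 1 and 63.3 (53.4 to 74.5) in wells with 2 or more. A satellite gene outside the rule was present in 22 of the 28 wells with 1 rule UMI and in all 26 wells with more. At least 2 such genes were present in 14 of 28 and 23 of 26. Chodl followed the same order at 1.03, 6.91 and 17.0 per 10000, and Peg3 at 1.17, 6.05 and 13.1. Fibroblast genes stood at 541, 205 and 100 per 10000 over all pools.

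These orders differed between the pools. The satellite list stood at 37.9 per 10000 (27.5 to 50.8) in the 13 wells of the 2-day pool with 1 rule UMI and 63.5 (49.5 to 80.2) in the 12 with more. At 13 weeks it was 42.7 (25.7 to 66.8) in 6 wells and 50.1 (31.4 to 75.8) in the 6 with more, with overlapping intervals. At 6 weeks it was 14.1 (6.77 to 25.9) in the 9 wells with 1 rule UMI, against 9.93 (7.39 to 13.1) in the other wells and 70.8 (53.1 to 92.7) in the 8 wells with more. The 6-week wells admitted by 1 UMI were thus not separated from the other wells in these genes by their counting intervals. Fibroblast genes in wells with 1 rule UMI also turned on that pool, which gave 322 of their 475 UMIs, at 454 per 10000 against 190 in its wells with more. At 13 weeks the fibroblast sums of both kinds of member were 65.2 and 66.0, and at 2 days they were 107 and 53.5, with 2-day medians over wells of 50.8 and 57.8.

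**Figure D2:**
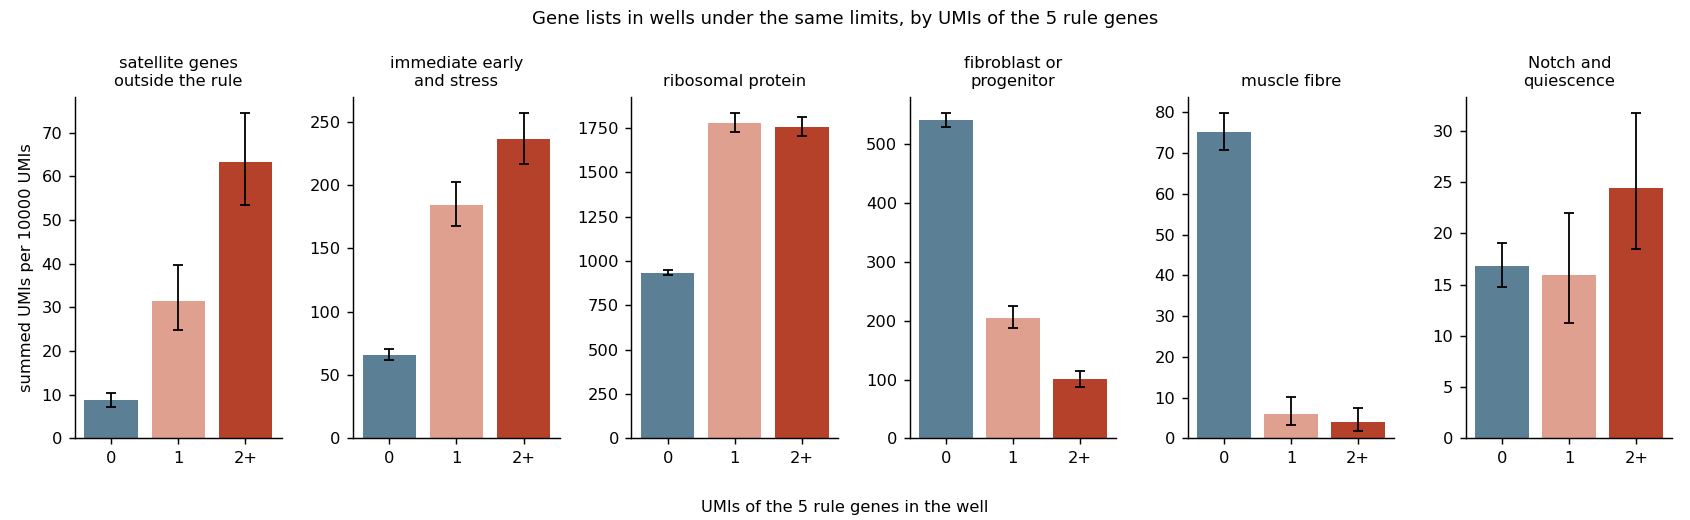
Bars give the summed level of 6 gene lists, in UMIs per 10000 on linear axes from 0 that differ between panels, in wells with 0, 1 and 2 or more UMIs of the 5 rule genes, all within the limits on Rgs5 and tendon genes, with 95% Poisson intervals. The satellite genes outside the rule stand at 8.70, 31.5 and 63.3, the fibroblast genes at 541, 205 and 100, and the Notch and quiescence genes at 16.8, 16.0 and 24.5 with overlapping intervals.

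Genes of resting satellite cells and of differentiating muscle were sparse. The list of 18 Notch and quiescence genes stood at 20.2 per 10000 in members and 16.8 in the other wells. Of its 2 tested genes none passed the adjusted threshold. Hes1, a target of Notch, had a log2 difference of 0.28 (edgeR adjusted p = 0.60), and Col5a1, a collagen of the matrix, -2.34 (adjusted p = 0.0558). Tenm4, a membrane protein of the teneurin family, had 12 UMIs in 11 members and 1 UMI in the other wells but was under the filter. The 10 genes of myogenic commitment gave 7 UMIs in all members, from Cdkn1a (5), Myog (1) and Mef2c (1), and Myf6, Mymk, Mymx, Myh3, Myh8, Tnnt2 and Actc1 gave none. The sum was 1.52 per 10000 against 3.70 in the other wells. Cell cycle genes were seen in 9 members and summed to 7.95, 1.37 and 3.39 per 10000 at 2 days, 6 weeks and 13 weeks, against 2.30, 2.14 and 3.93 in the other wells. A single 2-day member held 11 of the 23 UMIs, and without it the members stood at 2.72, against 4.99 with it and 2.67 in the other wells. They included Top2a, which untangles DNA (7 UMIs in 3 members, 5 of them in that member), Mki67, the proliferation antigen (3 UMIs, all in that member), and Pcna, the replication clamp (8 UMIs in 6).

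Of the immediate early genes, which cells switch on within minutes of a stimulus, Egr1 and Fos were called higher in the members. Egr1, a zinc finger transcription factor, stood at 64.9, 74.8 and 41.9 UMIs per 10000 in members at 2 days, 6 weeks and 13 weeks. The other wells held 21.1, 10.9 and 7.34, so that members were higher in 3 of 3 pools. Egr1 was present in 45 of 54 members, with a log2 difference of 2.07 ± 0.32 and an edgeR adjusted p of 0.0199. At 300 UMIs per well it was seen in 74.1% of members and 27.0% of the other wells. Fos, a subunit of the AP-1 transcription factor, held 20.3, 35.7 and 32.8 per 10000 in members against 12.4, 10.9 and 8.39, again higher in 3 of 3 pools. Its log2 difference was 1.23 ± 0.31, with an edgeR adjusted p of 0.0488 that became 0.0502 with the genes of the rule left out of the adjustment. It was past the threshold in 6 of 15 alternative settings that kept the 3 pools. Egr1 and Fos were both present in 34 members.

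Over the whole list of 17 immediate early and stress genes, 9 were tested, 2 rose (1, Egr1, with the genes of the rule left out of the adjustment), none fell and 8 had fitted differences above 0, with a median of 1.23 against -0.27 for all genes. Of all 545 tested genes, 4.4% rose. Fosb, a relative of Fos, reached 1.84 without passing (edgeR adjusted p = 0.0575), and Btg2, an inhibitor of division, 1.51 (adjusted p = 0.0506). The list summed to 201, 269 and 137 per 10000 in the members of the 3 pools and to 75.1, 61.9 and 58.7 in the other wells. Per well, the median was 187 in members and 26.7 in the other wells. The list was at 184 per 10000 in wells with 1 rule UMI and 236 in wells with more, but at 2 days the order was the reverse (212 and 190), and at 6 weeks the values were 189 and 345.

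Both metallothionein genes, whose small proteins bind zinc and copper, were higher in the members. Mt2 (chr8:94172664-94173568) had 41.1, 16.5 and 26.02 UMIs per 10000 in members at 2 days, 6 weeks and 13 weeks, and 8.15, 2.14 and 4.46 in the other wells. Members were higher in 3 of 3 pools. The 140 UMIs came from 30 members, the log2 difference was 2.34 ± 0.28, and the edgeR adjusted p was 0.0185. A few wells held many of these UMIs. The 3 highest wells held 47 of 93 Mt2 UMIs at 2 days, 17 of 24 at 6 weeks and 21 of 23 at 13 weeks. At 13 weeks 13 Mt2 UMIs were in 1 well, and the median over the 12 members was 0. For Mt1 at 13 weeks, 12 of 25 UMIs were in 1 well and 21 in 3. Mt1 (chr8:94179082-94180327), the neighboring gene, had 27.8, 12.4 and 28.3 per 10000 in members against 6.73, 6.04 and 5.77. It differed by 1.58 ± 0.32 on the log2 scale (edgeR adjusted p = 0.0293). Mt1 passed in 10 of the 15 alternative settings that kept the 3 pools, with edgeR adjusted p up to 0.265 in the others, and Mt2 passed in all 15. Both genes were present in 18 members, Mt2 alone in 12, Mt1 alone in 9 and neither in 15.

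Metallothionein promoters are known for metal response elements, to which the zinc-sensing factor MTF-1 binds, with the cores TGCACNC and TGCGCNC. The RefSeq promoters of both genes (GRCm38.p6, from 250 bases before to 50 bases after the start) are shown because these were the 2 neighboring genes that rose together. Capitals mark each core on either strand. Mt1 lies at chr8:94178839-94179138 on the plus strand and Mt2 at chr8:94172368-94172667 on the plus strand.
Mt1: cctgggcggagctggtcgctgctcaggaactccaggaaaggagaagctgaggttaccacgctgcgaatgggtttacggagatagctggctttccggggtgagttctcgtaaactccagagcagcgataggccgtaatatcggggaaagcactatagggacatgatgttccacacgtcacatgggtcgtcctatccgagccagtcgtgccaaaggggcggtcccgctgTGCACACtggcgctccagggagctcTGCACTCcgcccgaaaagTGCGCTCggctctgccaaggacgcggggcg
Mt2: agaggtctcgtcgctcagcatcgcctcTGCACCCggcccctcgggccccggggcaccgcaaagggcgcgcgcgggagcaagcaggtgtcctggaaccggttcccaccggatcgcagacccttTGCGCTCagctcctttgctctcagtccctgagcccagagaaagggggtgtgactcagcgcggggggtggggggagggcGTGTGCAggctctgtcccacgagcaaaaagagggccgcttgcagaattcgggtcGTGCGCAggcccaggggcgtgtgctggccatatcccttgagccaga

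Mt1 held 3 cores in this window and Mt2 held 4. Of 32851 promoters of the same length, 25.7% held at least 1 core and 0.518% held 4 or more. Of the genes that were higher in members, 20 had a promoter in the table and 9 of these held a core (45.0%). Those 9 include Mt1 and Mt2 themselves, for which the cores were chosen. Among those that were lower it was 6 of 31 (19.4%). The 32851 promoters include those of genes not tested here, and the difference between these shares was not tested. A match is a run of letters and does not show binding.

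Other genes called higher had few UMIs and no list in common. Errfi1, a feedback inhibitor of the EGF receptor, had 19.0, 9.61 and 2.26 UMIs per 10000 in members against 2.66, 0.779 and 0.524 in the other wells, a log2 difference of 2.76 ± 0.48 (edgeR adjusted p = 0.0241). Meg3, a long noncoding RNA expressed from the maternal copy, had 20.8, 17.2 and 5.66 against 4.96, 2.73 and 2.36, a difference of 1.87 ± 0.40 (edgeR adjusted p = 0.0341). Clmn, which encodes calmin, had 3.97, 4.12 and 5.66 against 0.531, 0.390 and 0.524, a difference of 2.90 ± 0.65 (edgeR adjusted p = 0.0348). All 3 were higher in 3 of 3 pools. In alternative settings that kept the 3 pools, Meg3 passed in 11 of 15 and Clmn in 10 of 13. Errfi1, Meg3, Clmn, Mt2 and Gsn overlap other annotated genes. So do others named in this report, among them Acta1, Tnnc2, Col3a1, Col1a2, Sparcl1, Igfbp7, Col6a3, Rpl12 and Rps21. Without a stated strand, reads of all such genes cannot be told apart from those of their partners. Hnrnph1, an RNA-binding splicing factor, differed by 1.92 ± 0.47 (edgeR adjusted p = 0.0449) and passed in 9 of the 14 alternative settings that tested it with the 3 pools. Cxcl1, a chemokine that draws neutrophils, differed by 2.48 ± 0.48 (edgeR adjusted p = 0.0293), but 17 of its 40 UMIs were in 1 member. Osgin1, a gene of the oxidative stress response, had 24 UMIs in 6 members, 14 of them in 1 well, and none in the other wells. At 13 weeks Osgin1 had 0 UMIs in the 12 members as well. Set against the limit that 0 counts allow (3 counts over the other wells), its level over all pools was at least 25.4-fold higher.

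**Figure D3:**
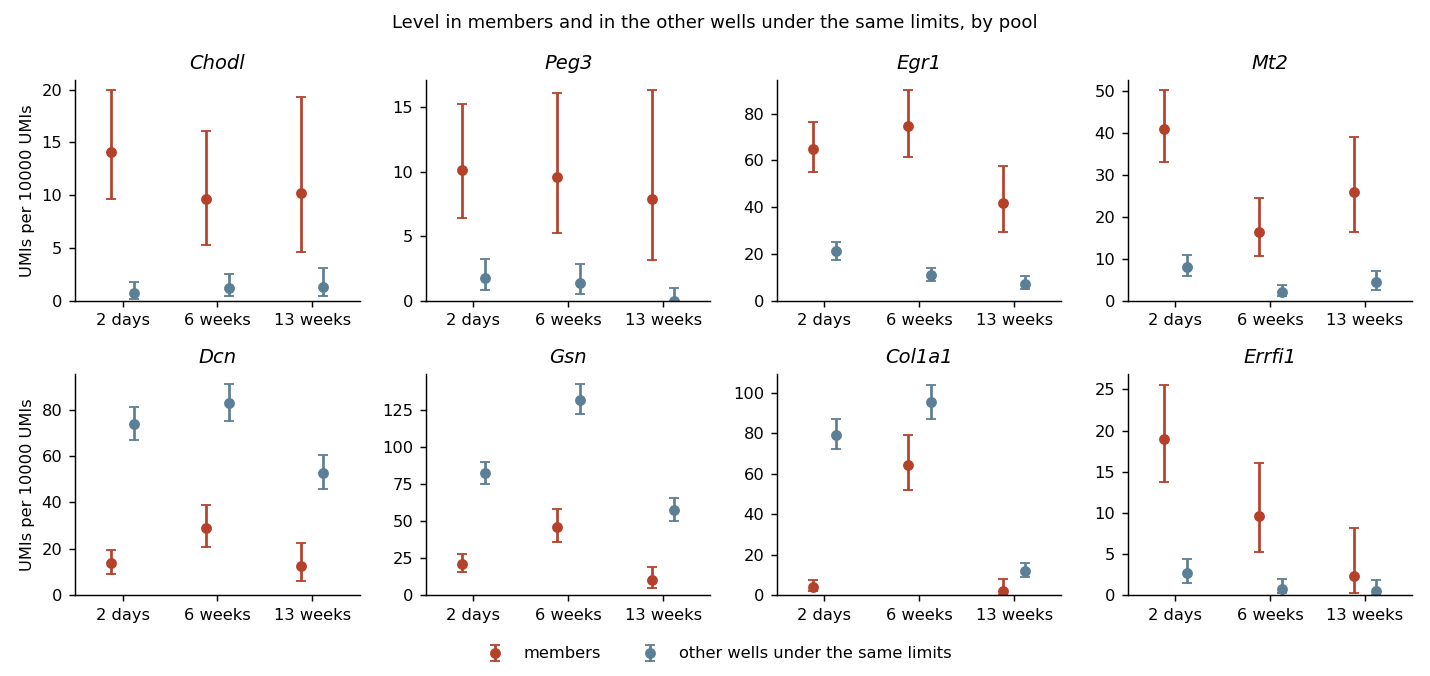
Levels of 8 genes in UMIs per 10000 (linear axes from 0 that differ between panels) at 2 days, 6 weeks and 13 weeks, with 1 red point per pool for members, 1 blue point for the other wells and 95% Poisson intervals. In the panels of Egr1, Mt2, Chodl and Peg3 each member point lies above the point of the other wells of its pool, and in those of Dcn and Gsn below it.

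Ribosomal protein genes took a larger part of the transcripts in members, with 1822, 1389 and 2260 UMIs per 10000 at 2 days, 6 weeks and 13 weeks against 1012, 842 and 948. Of 77 tested, 11 rose (5 with the genes of the rule left out of the adjustment), none fell and 74 were above 0, with a median of 0.72. Over all 545 tested genes 24 (4.4%) rose, or 16 with the genes of the rule left out, and the median was -0.27. Rps21, Rpl12 and Rpl36a, all parts of the ribosome, rose by 1.18, 1.08 and 1.14 on the log2 scale, and passed in 10, 10 and 7 of the 15 alternative settings that kept the 3 pools. Reads of these genes can be shared with their processed pseudogenes, so single values are uncertain. With wells thinned to 300 UMIs 47 of the 62 tested were above 0 and 1 was called, and with members chosen by Pax7 or Cdh15 only none was called. Without TMM scaling, which shifts the median of all genes from -0.27 to -0.14, 22 were called. Over all genes, TMM gave 24 higher and 44 lower (35.3% higher) and plain totals 38 higher and 34 lower (52.8%).

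Of the fibroblast genes tested, 4 fell in the members against the other wells. Decorin (Dcn), a proteoglycan that binds collagen, held 13.7, 28.8 and 12.5 UMIs per 10000 in members and 73.7, 82.8 and 52.7 in the other wells at 2 days, 6 weeks and 13 weeks. Gelsolin (Gsn), which severs actin filaments, held 21.2, 46.0 and 10.2 against 82.5, 132 and 57.4. Both were lower in members in each of the 3 pools. Their log2 differences were -2.21 ± 0.31 and -2.16 ± 0.31, each with an edgeR adjusted p of 0.0185, and both passed in all 15 alternative settings that kept the 3 pools. At 300 UMIs per well, Dcn was seen in 38.9% of members and 71.6% of the other wells.

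Of all 545 tested genes, 8.07% fell in members. Of the 15 genes of the fibroblast and progenitor list, 14 were tested, 4 fell and none rose, with a median of -2.19. The other 2 called were Ly6a, which encodes the progenitor surface protein Sca1 (-2.60 ± 0.55, edgeR adjusted p = 0.0341), and Mfap5, a microfibril protein (-2.79 ± 0.46, edgeR adjusted p = 0.0208). Col3a1 and Col1a1, the fibrillar collagens, differed by -2.64 and -2.44 without passing (edgeR adjusted p = 0.0575 and 0.109). Pdgfra, a growth factor receptor of mesenchymal progenitors, had 2 UMIs in 1 member against 47 in the other wells. Outside the list, Apod fell by 2.91, Sparcl1 by 2.89, Igfbp7 by 2.90 and Col6a3 by 3.50 on the log2 scale (edgeR adjusted p from 0.0203 to 0.0235), the first 3 secreted proteins and the last a matrix collagen. Fth1, the heavy chain of the iron store ferritin, fell by 1.40 ± 0.25 (edgeR adjusted p = 0.0250), from 76.3, 88.2 and 66.3 per 10000 in the other wells to 32.2, 34.3 and 35.1 in members.

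Fibroblast transcripts were lower in members, not absent. At least 1 UMI of the list was seen in 53 of 54 members, and the list summed to 80.8, 319 and 65.6 per 10000 in the members of the 2-day, 6-week and 13-week pools against 634, 618 and 299. The median over single members was 53.1, 214 and 65.4 per 10000, and the highest member reached 909. The 6-week members thus stood apart.

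Type I collagen made up most of that gap, and the 6-week Rgs5 wells held it too. Col1a2, the second chain of type I collagen, was at 13.7, 101.6 and 14.7 UMIs per 10000 in members, and Col1a1 at 3.97, 64.5 and 2.26. At 6 weeks each was present in 17 of 17 members, whereas Col1a1 was present in 8 of 25 members at 2 days and in 2 of 12 at 13 weeks. The 6-week wells with Rgs5, a pericyte gene, held Col1a1 in 44 of 45 wells at 69.3 per 10000 (61.0 to 78.4), against 64.5 (52.1 to 79.0) in the members of that plate. At 2 days the Rgs5 wells held 15.6 per 10000. The intervals of both classes overlapped at 6 weeks. The other wells held more Col1a1, at 79.4, 95.2 and 12.1 per 10000. Whether the 6-week collagen UMIs came from the cell in the well was not tested.

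**Figure D4:**
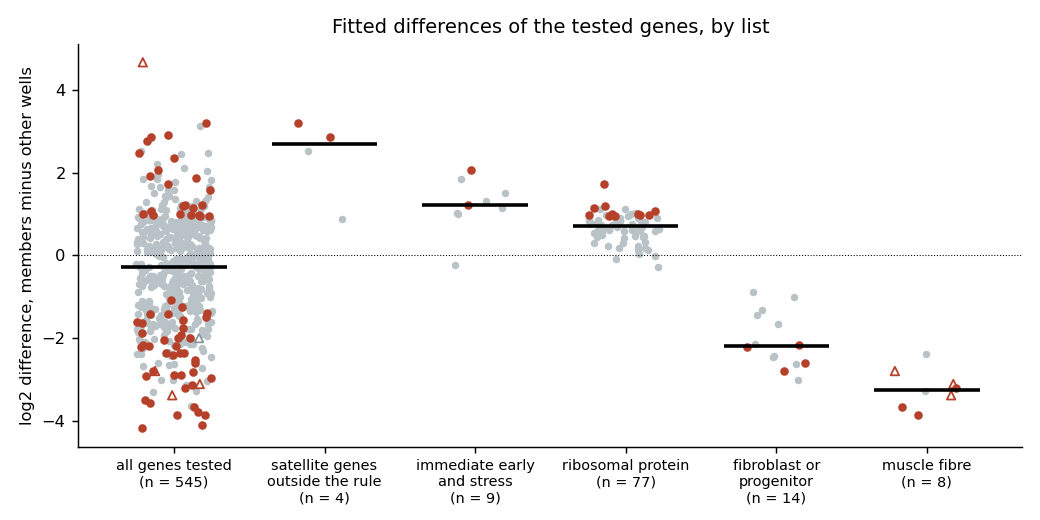
Log2 differences, members minus other wells (vertical axis), for all 545 tested genes and for the tested genes of 5 lists, with 1 point a gene, red where the edgeR adjusted p is under 0.05, hollow triangles for genes with 0 UMIs in 1 class set at the bound from 3 counts, and a bar at each median. The medians of the satellite (2.70), immediate early (1.23) and ribosomal (0.72) genes lie above that of all genes (-0.27), and those of the fibroblast (-2.19) and fibre (-3.24) genes below it.

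Muscle fibre genes were lower in members than in the other wells, and a few wells set that difference. The list of 16 fibre genes stood at 4.99 per 10000 in members (3.17 to 7.49) and 75.3 in the other wells (70.9 to 79.9). Of 8 tested genes 6 fell and none rose, with a median of -3.76, or -3.24 with the 3 genes that had no UMI in members set at their bound. Of all 545 tested genes, 8.07% fell. Acta1, the skeletal muscle actin, fell by 3.87 ± 0.56 on the log2 scale (edgeR adjusted p = 0.0185), and Tnnc2 and Mylpf, a troponin and a myosin light chain, by 3.21 and 3.65. Myl1, Tcap and Tnni2, further parts of the contractile fibre, were at 0 in members, and their levels were at least 10.4-fold, 8.63-fold and 6.94-fold lower. Of the 1099 fibre UMIs in the other wells, 1047 lay in 17 wells with 10 or more each, of which the 2-day pool held 1, the 6-week pool 10 and the 13-week pool 6. None of those 17 was a member. Without them the other wells stood at 3.81 per 10000 (2.84 to 4.99), within the interval of the members, and no fibre gene was abundant enough to be tested.

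Markers of other cell types were mostly lower in the members than in the other wells. Perivascular genes outside the rule summed to 6.30 per 10000 in members against 18.8. Myh11, the smooth muscle myosin, fell (1 UMI against 56, log2 -3.85, edgeR adjusted p = 0.0456, passed in 8 of 12 such settings), while Acta2, the gene of αSMA itself, had 13 UMIs against 110 (log2 -1.55, edgeR adjusted p = 0.0623). Pdgfrb, a pericyte receptor, had no UMI in members against 25. Tendon genes outside the rule stood at 8.69 per 10000 against 17.1, and at 146 in the wells over the tendon limit. Neither of the 2 tested was called. Osteoblast genes stood at 7.60 against 33.7, with none of 3 called, but at 13 weeks they were at 6.79 in members and 1.31 in the other wells. Endothelial genes stood at 6.73 against 13.7, but at 6 weeks at 16.5 (10.6 to 24.5) against 7.59 (5.40 to 10.4), where a single member reached 108. Immune genes were 3 S100a8 UMIs, with the leukocyte gene Ptprc at 0, Schwann cell genes 1 UMI and chondrocyte genes 4 UMIs of Sox9. Hemoglobin summed to 62.1 per 10000 against 31.2, and 273 of those 286 UMIs were in a single 2-day member, where they made up 38.2% of 715 UMIs. Without the wells that held hemoglobin, an alternative chosen after seeing the data, 73 genes were called against 68.

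The share of wells that were members was 13.8% at 2 days (interval 9.14 to 19.7), 8.995% at 6 weeks (5.33 to 14.01) and 9.02% at 13 weeks (4.75 to 15.2). Thinned to 300 UMIs the shares were 6.29%, 8.24% and 3.97% (11 of 175, 15 of 182 and 5 of 126 wells). Another random draw of the same depth gave 7.43%, 6.04% and 5.56%, so the order of the thinned shares varied with the draw. With 2 or more UMIs required they were 6.63%, 4.23% and 4.51%. With members chosen by Pax7 or Cdh15 only they were 12.2% (7.78 to 17.8), 5.82% (2.94 to 10.2) and 7.52% (3.66 to 13.4). Within each setting the intervals overlapped, which does not show that the shares were equal. With 1 pool per time point there is no test, and these intervals do not cover the difference between mice.

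**Figure D5:**
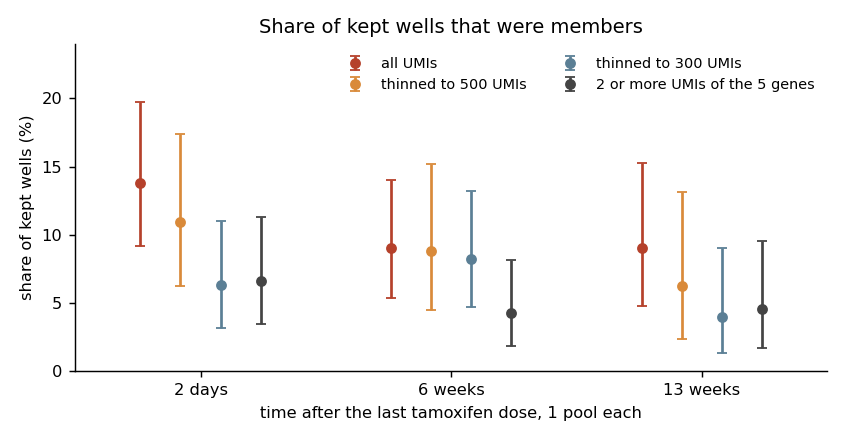
Percent of kept wells that were members at each time point (1 pool each), counted on all UMIs, after thinning wells to 500 or 300 UMIs, and with 2 or more UMIs of the 5 genes required, with 95% Clopper-Pearson intervals. On all UMIs the points are 13.8%, 8.995% and 9.02%, and in each setting the intervals of the 3 time points overlap.

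Within the members, levels at 13 weeks and 2 days came from the same plate and are given without a test. Pax7 stood at 7.07, 12.4 and 12.4 UMIs per 10000 at 2 days, 6 weeks and 13 weeks, and Cdh15 at 7.07, 3.43 and 4.53. Among genes with 30 or more UMIs, the highest ratio of 13 weeks to 2 days was 2.95 (counting interval 2.10 to 4.15) for Rn7sk, a small nuclear RNA that restrains transcription elongation, from 29.6 to 87.1 per 10000. It also went from 16.3 to 35.4 in the other wells. The ribosomal gene Rpl37a followed at 2.23 (1.35 to 3.64), against 10.5 and 12.6 per 10000 in the other wells. The mitochondrial gene mt-Co1 stood at 2.12 (1.09 to 4.06), Rps23 at 2.03 (1.25 to 3.25) and the gene model Gm12374 at 1.97 (1.27 to 3.04). For Gm12374, 23 of the 40 UMIs at 13 weeks were in 1 member, and without that well the ratio was 0.949. Leaving out the highest 13-week member gave 2.69 for Rn7sk, 2.03 for Rpl37a, 1.92 for mt-Co1 and 1.93 for Rps23. The lowest ratios were those of the 4 hemoglobin genes, which rested on the 1 member described above, and of Errfi1, at 0.119 (0.0140 to 0.458). Errfi1 was also lower at 13 weeks in the other wells, from 2.66 to 0.524. Egr1, named here after its values were seen, had a ratio of 0.645 (0.437 to 0.930), and in the other wells it went from 21.1 to 7.34. The mitochondrial share was 6.24% at 2 days and 8.58% at 13 weeks in members, and its part in these ratios was not tested.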

How the data were processed

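Tomato+ cells were sorted into wells of 2 plates and sequenced by plate-based Drop-seq with 13 PCR cycles, which counts 3′ ends. The authors aligned reads to mm10 with STAR (version 2.5.4a, with Picard 2.9.3 and bcl2fastq 2.18.0.12 also in the submitters' processing notes), collapsed them by UMI and deposited raw UMI and read counts per gene and well, with a table of each well's time point. That table writes 12 weeks where the sample labels write 13 weeks. Whether the counting used strand is not given in the sources used here. The 168 wells with no time point were not used. The 2 plates carry the same 384 of 384 barcodes, so wells were identified by plate and barcode.

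UMI counts were summed per pool and class (members, other wells within the limits) and tested with edgeR 4.0.16 (R 4.3.3): TMM scaling, filterByExpr, robust quasi-likelihood test, pool as block, Benjamini-Hochberg adjustment over all tested genes. The 9 genes of the rule stayed in the fit and the adjustment, where 4 passed the filter, and their tests are not reported. Leaving them out of the adjustment was an alternative chosen after seeing the data. Each SE is the absolute log2 difference divided by the square root of the F statistic of the test. Fold changes of genes with 0 UMIs in 1 class are bounds from 3 counts over that class. Levels are UMIs per 10000 with exact Poisson intervals, and shares have Clopper-Pearson intervals, both at 95% and for counting error only. Thinning to 300 UMIs per well used seed 0. No member and 9 other wells were under 300 UMIs and were left out of the thinned shares. Cells were sorted 1 to a well, and no doublet caller was run. Scripts were tested on simulated data (Python 3.11.15, numpy 2.4.6, pandas 2.3.3, scipy 1.17.1, matplotlib 3.10.9).

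The members and gene lists were chosen with earlier results of these data known. A gene of the satellite list is not reported here by name. Named genes were the list genes, the 20 higher and 10 lower genes with the smallest adjusted p, and the 5 highest and 5 lowest ratios of 13 weeks to 2 days among genes with 30 or more UMIs in members. Alternatives were DESeq2 1.42.0, plain totals, no filter, read counts, other cell limits and rules, other comparison wells, thinning, no block and leaving out each pool.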

Additional observations from a re-analysis of the deposited data

Results flagged for a closer look

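The hemoglobin genes went opposite ways at 2 days and 13 weeks. At 2 days the ratio of members to other wells was 112 for Hba-a1 (counting interval 19.1 to 4528), 79.8 for Hba-a2 (13.3 to 3248), 211 for Hbb-bs (57.4 to 1754) and 87.3 for Hbb-bt (14.7 to 3544), each over 1 or 2 UMIs in the other wells. At 13 weeks Hba-a1, Hba-a2 and Hbb-bt had 0 UMIs in members against 54, 21 and 101 in the other wells, and Hbb-bs had 4 against 270, a ratio of 0.0639 (0.0173 to 0.166). The difference between the time points was not tested, since each is 1 pool. At 2 days 273 of the hemoglobin UMIs of the members were in 1 well of 715 UMIs, which held 2 rule UMIs, 1 of them Pax7. At 13 weeks 1 of the other wells, at 3031 hemoglobin UMIs per 10000, was the only one there with 10 or more.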

How the results depend on the processing

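The 68 calls of the main test moved with the choice of wells and scaling. There were 17 with members chosen by Pax7 or Cdh15 only, 273 against all other kept wells, 121 with a minimum of 300 genes, 120 with no filter on low counts, 121 with no pool block, and 35 and 43 with wells thinned to 300 and 500 UMIs. Leaving out a pool gave 0 to 96 calls, with 0 without 13 weeks, 0 without 2 days and 96 without 6 weeks. Within 1.5 times of 68 were 84 with 2 or more rule UMIs, 55 with DESeq2, 72 without TMM, 55 with a minimum of 100 genes, 48 with read counts, 72 without fibre wells, 52 with the genes of the rule left out of the adjustment and 73 without hemoglobin wells. Each alternative's adjustment but that one included the genes of the rule. No call changed direction where it was tested. The cause of these shifts was not tested.

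The share of members at 2 days was 6.29% thinned to 300 UMIs, 7.43% with another seed and 6.63% with 2 or more rule UMIs. At 6 weeks it was 4.23% with 2 or more, and at 13 weeks 3.97% thinned and 4.51% with 2 or more. The share of wells with a satellite gene outside the rule was 83.7% of members at 500 UMIs and 88.9% unthinned, and in the other wells 17.8% at 200 UMIs and 45.9% unthinned. The main test pairs members and other wells of the same pool through the pool block, and the labels give no further replicate numbers to pair.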
